A study of Mus musculus with 35 samples.

Results

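The change of untreated primary mouse embryonic fibroblasts over 24 h of culture was read from 8 of the 35 arrays of the series. These are the 4 arrays of control cells harvested at 24 h and the 4 of control cells harvested at 0 h, chosen by their titles, and all genes were compared. The cells were primary MEFs of the strain C57BL6/J, grown in DMEM with 10% inactivated FBS and antibiotics at 5% O2. Both groups had been plated 24 h before the medium was exchanged, and the later group then stayed in fresh medium without methyl methanesulfonate (MMS), the alkylating agent given to the treated groups of the series. The labels put the cells at 60 to 70% confluence during growth and treatment. They give embryos of day 15.5 and 2 passages, whereas the methods of the study give a younger embryo and a higher passage number. Head and liver were removed before the remaining embryo was dissociated, so that several mesenchymal and other cell types can be in the cultures. The 4 replicates are called biological, but nothing says that they came from separate embryos or cultures. The p-values measure the spread between arrays within groups, pooled over all 35 arrays of the series.

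Fibroblasts taken from an embryo divide quickly in serum, and the growth factors of fresh serum act through receptor tyrosine kinases and ERK to switch on immediate early transcription factors, which are followed by cyclin D and entry into S phase. Genes of DNA replication are transcribed from late G1 under control of E2F factors. Genes of mitosis are transcribed later, in G2, by the MuvB complex with B-MYB and FOXM1, and are held down by the DREAM complex in resting cells. In a bulk sample, a higher share of cycling cells and more transcript per cycling cell cannot be told apart.

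All values are log2 signals normalised by the authors, and a difference of 1 is a 2-fold change. One array stands apart. Control 0 h replicate 3 correlated with the other arrays of both groups at r = 0.908 to 0.915 over the 14135 genes tested, and the other 7 arrays correlated with each other at 0.992 to 0.998. In that array 24 of the 25 intestinal markers tested exceeded the mean of its 3 sister arrays at 0 h by over 1 log2 unit, and the mean of the marker list was 11.58 against 4.38, 4.38 and 4.71 in the other 0 h arrays. Control 24 h replicate 4 had 9 of these markers above the same limit, with a list mean of 5.24 against 4.20 to 4.29 in the other arrays at 24 h. Fibroblast markers were high in all 8 arrays, with list means of 10.37 to 10.58 at 0 h and 10.41 to 10.47 at 24 h. The difference between the 3′ and the 5′ probe set of beta-actin was 0.16 to 0.26 at 0 h and 0.18 to 0.27 at 24 h, which overlap. Results are therefore given with all arrays, and for many counts and genes also without control 0 h replicate 3. A count or call given only with all arrays may differ without that array.

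At 24 h 1289 genes were higher and 291 were lower than at 0 h (limma, Benjamini-Hochberg adjusted p under 0.05), which is 9.12% and 2.06% of the genes tested. Thus 81.6% of the called genes rose. The changes were small, with a median log2 difference of 0.38 among the genes that rose, a 1.3-fold change, and of -0.38 among those that fell. At least 2-fold differences were found for 24 genes, 17 higher and 7 lower, or 0.17% of the genes tested. The median over all genes tested was 0.013. The arrays were normalised to like medians (4.98 to 5.09), so this value cannot show a shift common to all genes. Without control 0 h replicate 3, 990 genes were higher and 293 lower, 7.0% and 2.07% of the genes tested. Of the genes called with all arrays, 877 of those that rose and 188 of those that fell were called in the same direction without that array. A further 277 genes had a log2 difference of -1 or less and did not pass the test, and for 0 of them did the difference reach -1 without that array. In 48 of the called genes, 26 higher and 22 lower, the mean of one group lay under log2 4.40, the limit of the filter, so that the size of their difference cannot be read. They include 2 of the 24 genes with at least 2-fold differences.

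**Figure D1:**
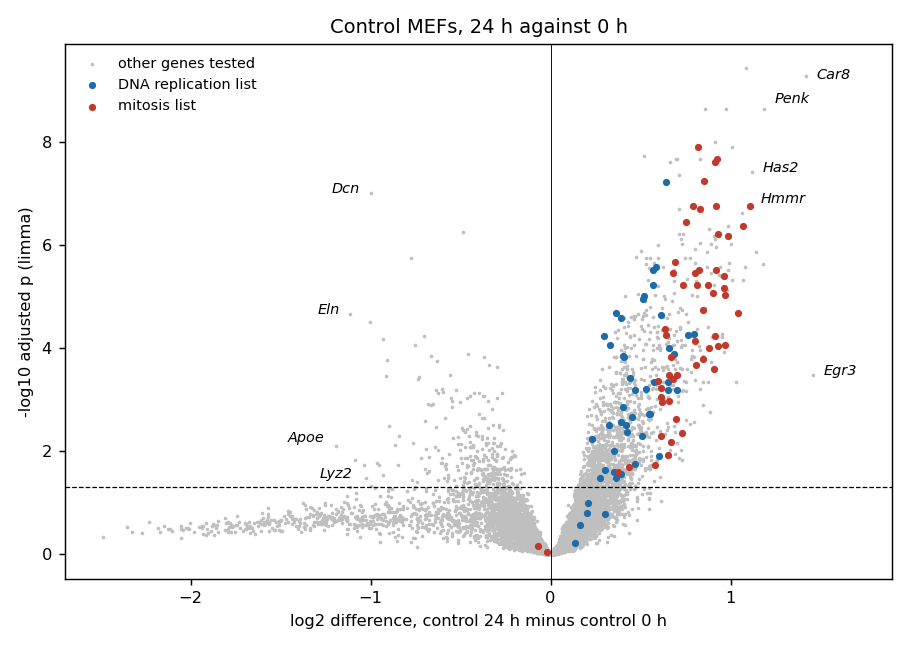
Log2 difference of control 24 h minus control 0 h (x axis) against -log10 of the limma adjusted p (y axis, dashed line at an adjusted p of 0.05) for the 14135 genes tested. The mitosis genes (red) and the DNA replication genes (blue) lie on the right apart from Kif15 and Pttg1, and the genes far to the left below the dashed line did not pass the test.

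Genes of mitosis rose nearly as a whole. Of the 55 members of the mitosis list tested, 53 were called higher and 0 lower, against the 9.12% higher of all genes. Their median log2 difference was 0.81, a 1.75-fold change, against 0.013 over all genes, and without control 0 h replicate 3 it was 0.76 with 50 members called. In 52 of the 55 every array at 24 h lay above every array at 0 h, which held for 11.5% of all genes tested. Only Kif15 and Pttg1, with log2 differences of -0.07 and -0.02, lay below 0. The probe set with the highest signal stands for each gene, and the 42 other probe sets of these genes above the detection limit had a median difference of 0.75, with 40 of them above 0.

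Hmmr, the hyaluronan-mediated motility receptor that organises spindle microtubules, had the largest difference of the list. Its values were 8.66, 8.65, 8.50 and 8.67 at 0 h, then 9.56, 9.72, 9.74 and 9.88 at 24 h. The groups do not overlap, and control 0 h replicate 3 had the lowest value. The log2 difference was 1.11 ± 0.12 (SE; adjusted p = 1.8e-07), a 2.16-fold change, and 4 other probe sets of the gene gave 0.98 to 1.38. Ttk, the kinase MPS1 of the spindle checkpoint, was at 6.62, 6.45, 6.45 and 6.84 at 0 h and at 7.44, 7.63, 7.68 and 7.89 at 24 h. The lowest array at 24 h lay above the highest at 0 h, with a difference of 1.07 ± 0.12 (SE; adjusted p = 4.3e-07). Cenpe, a kinesin of the kinetochore, was at 8.12, 8.03, 7.87 and 8.27 at 0 h and 9.07, 9.11, 9.11 and 9.17 at 24 h. It rose by 1.04 ± 0.15 (SE; adjusted p = 2.1e-05), and the arrays at 24 h differed by less among themselves than those at 0 h. The other probe set of Cenpe gave 0.47.

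The rise ran through each function on the list. The members named in this paragraph were chosen for their roles with their values known. Cdk1, the kinase that drives entry into mitosis, had values of 9.82, 9.78, 9.57 and 9.97 at 0 h and of 10.46, 10.42, 10.38 and 10.65 at 24 h, a difference of 0.69 ± 0.09 (SE; adjusted p = 2.2e-06). Its partner cyclins Ccnb2 and Ccna2 rose by 0.80 and 0.61, and the phosphatases Cdc25b and Cdc25c, which activate it, by 0.62 and 0.60. For the mitotic kinases the differences were 0.82 for Plk1, 0.85 for Aurka, 0.66 for Aurkb, 0.68 for Nek2 and 0.84 for Melk. Plk1, the polo kinase, was at 8.57, 8.58, 8.48 and 8.66 at 0 h and at 9.54, 9.35, 9.21 and 9.49 at 24 h. All of these passed the test, and none of the Plk1 arrays overlapped between the groups.

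The spindle checkpoint genes Bub1, Bub1b and Mad2l1 rose by 0.93, 0.73 and 0.64. Cdc20 and Ube2c, which start and feed the anaphase-promoting complex, rose by 0.70 and 0.85. The motor proteins spread from Kif15, which was not called, to Kif23 at 0.99, with Kif11, the motor that pushes the spindle poles apart, at 0.88 and Kif20a at 0.92. Kif23, which bundles the midzone and is needed for cytokinesis, had values of 8.06, 8.14, 8.05 and 8.29 at 0 h and 9.06, 9.08, 9.05 and 9.31 at 24 h. Its partner in the centralspindlin complex, Racgap1, rose by 0.81, and Prc1, another bundler of midzone microtubules, by 0.75. The chromosome genes Top2a and Cenpa rose by 0.81 and 0.66, and Mki67, the common marker of dividing cells, by 0.91 ± 0.15 (SE; adjusted p = 5.8e-05). Foxm1, the transcription factor of this programme, had a log2 difference of 0.37 with all arrays (adjusted p = 0.0253), the lowest of the called members. It was not called without control 0 h replicate 3 (0.29, adjusted p = 0.115). Other probe sets of Foxm1 gave 0.47 and 0.58 with all arrays.

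Since so many mitosis genes moved together, their promoters are shown for the 3 with the largest rise. The sequences are RefSeq windows of the build GRCm38.p6, from 250 bases before to 50 bases after the annotated start, printed 5′ to 3′ on the strand of the gene. Capitals mark the letters TTTGAA of the cell cycle genes homology region (CHR), the CCAAT box and the E2F site in the forms TTTCGCGC or TTTGGCGC, each searched on both strands. The CHR is the element to which the MuvB complex binds and the CCAAT box that of NF-Y.
Hmmr (chr11:40733388-40733687, minus strand): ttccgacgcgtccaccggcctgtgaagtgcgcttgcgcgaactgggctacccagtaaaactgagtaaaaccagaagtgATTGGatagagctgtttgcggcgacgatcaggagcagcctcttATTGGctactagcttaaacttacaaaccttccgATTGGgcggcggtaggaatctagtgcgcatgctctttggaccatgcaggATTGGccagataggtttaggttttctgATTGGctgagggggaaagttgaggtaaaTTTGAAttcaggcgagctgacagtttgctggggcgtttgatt
Ttk (chr9:83834439-83834738, plus strand): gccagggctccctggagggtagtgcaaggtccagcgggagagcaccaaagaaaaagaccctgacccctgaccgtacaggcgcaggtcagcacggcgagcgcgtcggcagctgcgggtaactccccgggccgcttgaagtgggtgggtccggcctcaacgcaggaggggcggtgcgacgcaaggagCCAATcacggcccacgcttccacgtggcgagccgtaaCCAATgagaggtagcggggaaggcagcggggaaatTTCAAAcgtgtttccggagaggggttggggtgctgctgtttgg
Cenpe (chr3:135212313-135212612, plus strand): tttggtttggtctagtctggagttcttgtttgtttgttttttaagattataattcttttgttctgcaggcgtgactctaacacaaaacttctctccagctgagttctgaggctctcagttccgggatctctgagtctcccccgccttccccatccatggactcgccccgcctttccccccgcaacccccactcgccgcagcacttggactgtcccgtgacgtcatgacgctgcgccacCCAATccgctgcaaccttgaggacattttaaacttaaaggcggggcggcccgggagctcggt
In Hmmr the CHR begins 9 bases after the start and 5 CCAAT boxes precede it, all read on the other strand. In Ttk a CHR on the other strand begins at position 8 behind 2 CCAAT boxes at -65 and -28. Cenpe holds 1 CCAAT box at -12 and no match to the CHR letters in this window.

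Counted over all genes of the list, 33 of the 44 promoters of called mitosis genes (75.0%; 42 of the 53 genes had an entry) held the CHR letters. The same letters were in 17.9% of all 32851 promoters, in 12.4% of the promoters of genes tested here and in 10.5% of the 38 promoters of called DNA replication genes. A CCAAT box together with a CHR was found in 65.9% of the mitosis promoters and in 6.95% of all promoters. The E2F letters were in 4.55% of the mitosis promoters and in 28.9% of those of replication genes, against 0.813% of all. Over all genes called higher the CHR share was 17.5%, and over those called lower 9.25%. A match describes the letters only, and binding was not measured.

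Most DNA replication genes were higher as well, with a lower median than the mitosis genes. Of the 47 members tested, 42 were called higher and 0 lower (39 and 0 without control 0 h replicate 3). Over all genes tested 9.12% were called higher. The median log2 difference was 0.44, a 1.36-fold change, and it was 0.41 without that array. All 47 differences lay above 0, from 0.14 for Rpa3 to 0.80 for Pole. In 38 genes every array at 24 h lay above every array at 0 h, which held for 11.5% of all genes tested. The members not called were Rpa3, Pold2, E2f1, Fen1 and Gins3, at 0.14 to 0.30.

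Pole, the catalytic subunit of the leading strand polymerase, was at 7.42, 7.14, 7.14 and 7.39 at 0 h and at 8.14, 7.91, 8.06 and 8.17 at 24 h. The difference of 0.80 ± 0.13 (SE; adjusted p = 5.3e-05) had no overlap between groups. Uhrf1, which carries DNA methylation to the new strand, was at 8.66, 8.70, 8.46 and 8.93 at 0 h and rose to 9.46, 9.42, 9.41 and 9.50, by 0.76 ± 0.12 (SE; adjusted p = 5.7e-05). Prim1, the primase, had 8.13, 7.91, 7.95 and 8.37 at 0 h and 8.66, 8.94, 8.86 and 8.71 at 24 h, and rose by 0.70 ± 0.14 (SE; adjusted p = 0.00064). In each of these genes control 0 h replicate 4 was at or near the top of its group, yet below all arrays at 24 h.

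The licensing factors Cdc6 and Cdt1, which load the MCM helicase on origins, rose by 0.58 and 0.45, with 0.19 in the other probe set of Cdt1. The helicase subunits Mcm2, Mcm3, Mcm4, Mcm5, Mcm6 and Mcm7 rose by 0.35, 0.42, 0.44, 0.65, 0.42 and 0.36, so that all 6 were higher. Mcm5 was at 9.12, 9.08, 8.99 and 9.25 at 0 h and at 9.77, 9.71, 9.80 and 9.78 at 24 h. Of the factors that turn the loaded helicase on, Cdc45 rose by 0.53 (-0.09 in its other probe set), Dbf4 by 0.59 and Gins1 by 0.65. The sliding clamp Pcna, whose signal was among the highest of the list, moved from 11.70, 11.61, 11.65 and 11.82 to 11.97, 12.03, 12.02 and 12.08, by 0.33 ± 0.05 (SE; adjusted p = 8.7e-05). The cyclins of the G1 to S transition, Ccne1 and Ccne2, rose by 0.39 and 0.60. For this group promoters of Uhrf1 and Mcm6 are shown as examples that hold E2F letters, and not as the largest rises. These letters were in 28.9% of the promoters of called replication genes.
Uhrf1 (chr17:56304063-56304362, plus strand, the later of its listed starts): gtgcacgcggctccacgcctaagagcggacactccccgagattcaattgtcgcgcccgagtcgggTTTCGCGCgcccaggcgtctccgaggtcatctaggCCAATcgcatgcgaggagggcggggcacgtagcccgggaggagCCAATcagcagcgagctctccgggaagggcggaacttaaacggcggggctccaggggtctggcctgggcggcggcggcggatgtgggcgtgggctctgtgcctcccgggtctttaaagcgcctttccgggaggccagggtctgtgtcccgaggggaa
Mcm6 (chr1:128359656-128359955, minus strand): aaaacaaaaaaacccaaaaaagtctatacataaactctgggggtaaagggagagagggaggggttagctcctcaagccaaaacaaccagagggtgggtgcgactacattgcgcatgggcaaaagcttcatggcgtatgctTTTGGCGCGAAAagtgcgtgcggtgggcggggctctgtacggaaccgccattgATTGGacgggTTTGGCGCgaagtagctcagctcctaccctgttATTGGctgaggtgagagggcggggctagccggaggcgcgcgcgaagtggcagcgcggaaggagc
In Uhrf1 the E2F letters begin at -185 with CCAAT boxes at -150 and -107. The window of its earlier listed start, not printed, holds 3 CCAAT boxes and 0 E2F sites. Mcm6 holds E2F letters at -110, -106 and -47, of which the first pair overlaps on opposite strands.

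**Figure D2:**
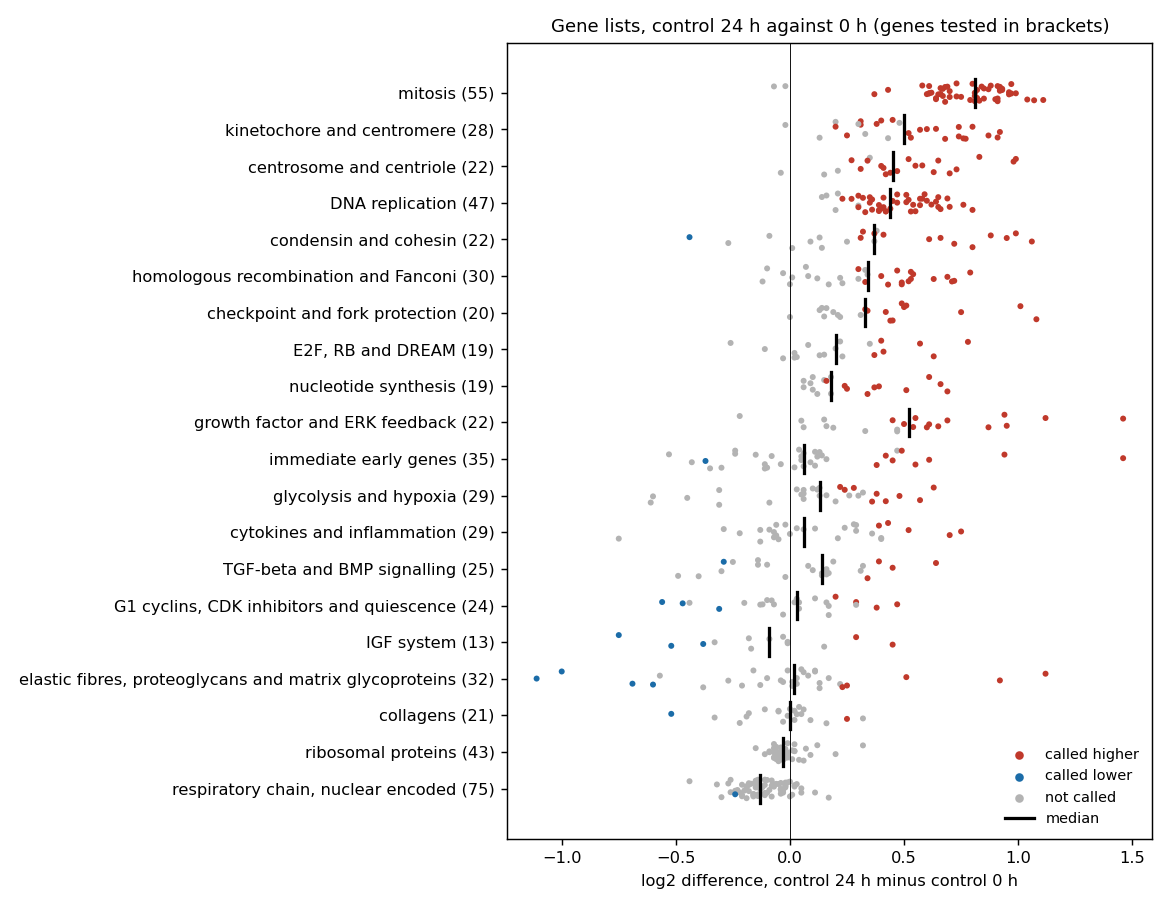
Log2 difference of control 24 h minus control 0 h for each gene tested of 20 lists, coloured by its call, with the median as a black bar. The mitosis genes centre at 0.81 and the DNA replication genes at 0.44, whereas ribosomal proteins and collagens centre at -0.03 and 0.00.

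The machinery that acts around mitosis and replication was described with 7 further lists drawn up after these values were known. Together with the 2 lists above they hold 256 tested genes, of which 184 were called higher and 1 lower (166 higher without control 0 h replicate 3). Over all genes tested 9.12% were higher and 2.06% lower. The counts and medians of the 7 lists describe a choice made with the values known and are not a test. The 184 genes are 14.3% of all genes that rose, so that 1105 genes higher at 24 h belong to none of these 9 lists. Of 28 kinetochore and centromere genes 21 were called higher (median 0.50), and 19 without control 0 h replicate 3. Among them were Cenph, Cenpu and Cenpi at 0.92, 0.91 and 0.87. The other probe set of Cenpu gave 0.47. Of 22 centrosome and centriole genes 18 were called higher (median 0.45), and 15 without control 0 h replicate 3. The 18 include Plk4, Sass6 and Stil, which build new centrioles, at 0.65, 0.70 and 0.73. The choice of probe set bears on single genes. Of the 295 called genes of all lists 157 had another probe set above the limit, and in 53 of these at least 1 such probe set gave less than 50% of the difference or the other sign. Aspm, a spindle pole protein, gave 0.99 with the probe set used here but 0.01 to 0.26 with its 4 other probe sets.

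Condensin, which compacts chromosomes for mitosis, rose in its subunits Smc2, Smc4, Ncapg and Ncaph by 0.72, 0.41, 1.06 and 0.88. The other probe sets gave 0.01 to 0.41 for Smc2, -0.01 and 0.40 for Smc4 and 0.50 for Ncapg. Of the cohesin genes, Smc1a and Smc3 had 0.31 and 0.32 with the probe sets used and values down to -0.34 and -0.14 with others, and Smc3 was not called without control 0 h replicate 3 (adjusted p = 0.0625). Esco2, which acetylates cohesin in S phase, was called higher, but its arrays at 0 h (3.71 to 4.10) lay under the limit of 4.40 and no size is given. In all 12 of 22 members were higher and 1 was lower (11 and 0 without control 0 h replicate 3). The fall was that of the loader Nipbl, at -0.44 (adjusted p = 0.05 after rounding) with all arrays and adjusted p = 0.0743 without control 0 h replicate 3, and its 4 other probe sets gave 0.05 to 0.19. Of 30 genes of homologous recombination and the Fanconi pathway, which mend breaks and crosslinks at forks, 16 were called higher and 0 lower. Without control 0 h replicate 3 these counts were 13 and 0. Exo1 and Fancb had 0.79 and 0.72 with the probe sets used and 0.42 and 0.23 with their other ones, whereas the 3 probe sets of Brca1 gave 0.68 to 0.71. Among 20 checkpoint and fork protection genes 11 rose (10 without control 0 h replicate 3), with Chek1 at 0.50 and Atr at 0.42. Clspn, which links ATR to CHK1, had 0.75 with the probe set used and 0.04 with its other one.

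Rad18, the ubiquitin ligase that marks PCNA at stalled forks, had values of 5.90, 6.08, 5.66 and 6.02 at 0 h and of 6.83, 7.15, 7.05 and 6.94 at 24 h. The difference was 1.08 ± 0.14 (SE; adjusted p = 2.7e-06) without overlap, but 3 other probe sets of the gene gave 0.20 to 0.26. Of 19 E2F, RB and DREAM genes 6 rose, among them the repressors E2f7 and E2f8 at 0.78 and 0.63, with 0.24 in the other probe set of E2f8. Of 19 genes of nucleotide synthesis 10 rose, and 4 of these are also members of the replication list. Without control 0 h replicate 3, 6 of them were called, and Umps, Paics, Pfas and Tyms no longer passed the test. Rrm2, the regulated subunit of ribonucleotide reductase, rose from 11.36, 11.43, 11.15 and 11.31 to 11.97, 11.83, 11.99 and 12.08, and Tk1, thymidine kinase, by 0.69 ± 0.12 (SE; adjusted p = 0.00013).

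Few regulators of G1 were called, and those lay in both directions. Of 24 G1 cyclins, CDK inhibitors and quiescence genes 4 were higher and 3 lower, with a median of 0.03. Without control 0 h replicate 3 these counts were 3 and 2. Over all genes tested 9.12% were higher and 2.06% lower. Ccnd1, cyclin D1, was at 11.44, 11.54, 11.17 and 11.45 at 0 h and at 11.98, 11.79, 11.81 and 11.90 at 24 h, a rise of 0.47 ± 0.07 (SE; adjusted p = 2.4e-05). Cdkn1c, the CDK inhibitor p57, was at 8.55, 8.54, 8.40 and 8.82 at 0 h and at 8.09, 7.97, 8.00 and 8.02 at 24 h, and fell by 0.56 on the log2 scale (adjusted p = 0.00034). Neither gene's groups overlap, and in both the difference held without control 0 h replicate 3 (0.39 and -0.62). The other CDK inhibitors Cdkn1a, Cdkn1b, Cdkn2a and Cdkn2b had differences of 0.04, -0.08, -0.07 and 0.16 and did not pass the test.

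**Figure D3:**
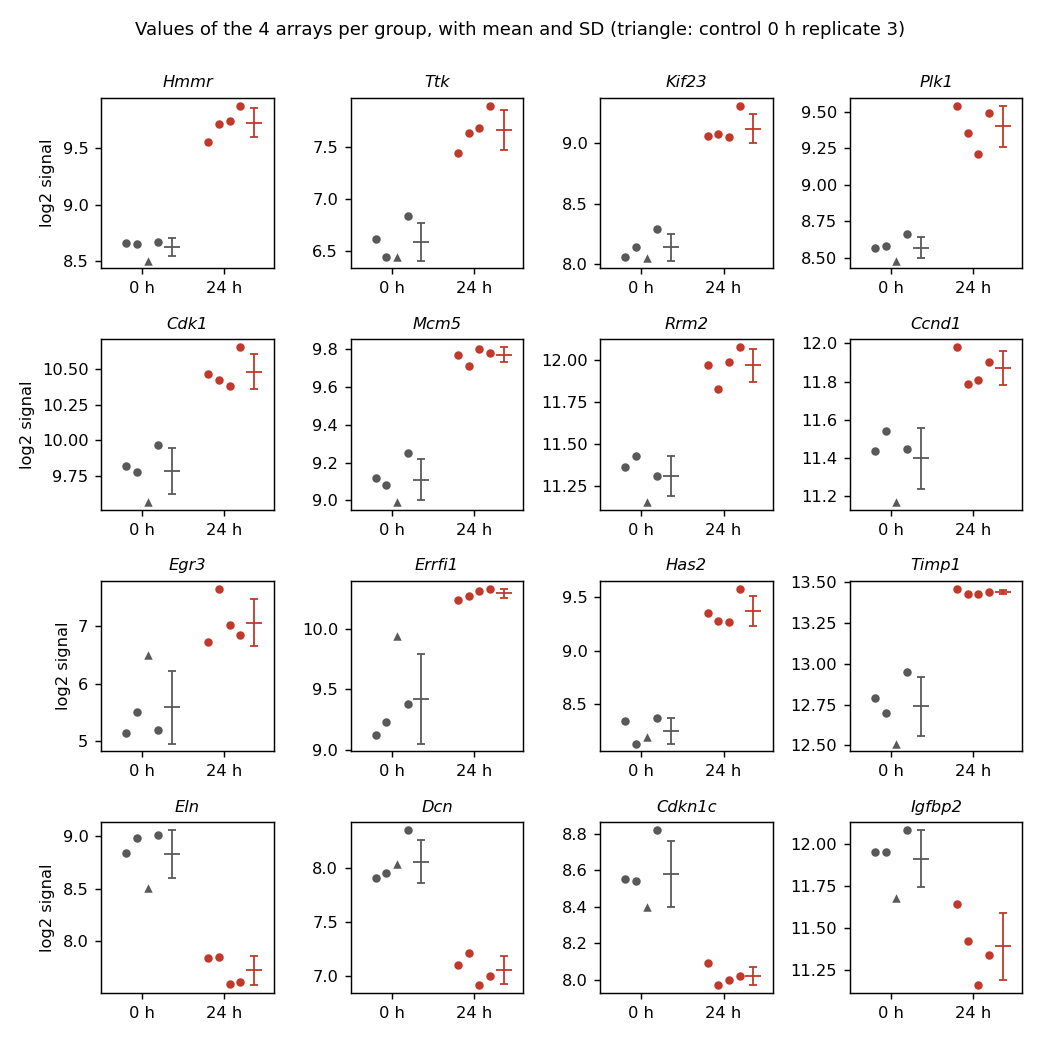
Log2 signal in the 4 arrays at 0 h (grey) and at 24 h (red) of 16 genes, with mean and SD beside the points. The arrays of the groups are apart in each panel, and the triangle marks control 0 h replicate 3, which among the genes that rose lies nearest to the 24 h arrays for Egr3 and Errfi1.

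Some genes that answer growth factors through ERK were higher as well. Their list was drawn up with the values known, so that its counts and median describe the choice and are not a test. Of 22 members tested 13 were higher and 0 lower, with a median of 0.52 (15 and 0.55 without control 0 h replicate 3). Egr3, a zinc finger transcription factor of the immediate early class, had the largest difference of all called genes. Its values were 5.15, 5.51, 6.50 and 5.20 at 0 h and 6.71, 7.64, 7.01 and 6.84 at 24 h. Control 0 h replicate 3 lay close below the 24 h arrays, and the difference was 1.46 ± 0.27 (SE; adjusted p = 0.00034) with it and 1.76 without it. A second probe set of Egr3 gave 0.01.

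The related Egr2 rose by 0.94 ± 0.12 (SE; adjusted p = 3.8e-06), from 7.27, 7.29, 7.52 and 7.34 to 8.25, 8.22, 8.25 and 8.44, whereas Egr1 had a difference of 0.05 and was not called. The inhibitors that ERK induces against itself rose in part, with Dusp4, Dusp5 and Spry2 at 0.61, 0.45 and 0.50. Errfi1, which blocks the EGF receptor, went from 9.12, 9.23, 9.94 and 9.38 to 10.24, 10.27, 10.31 and 10.33. It rose by 0.87, and by 1.05 without control 0 h replicate 3, its highest array at 0 h. The EGF family ligands Ereg and Hbegf rose by 0.69 and 0.60, and Socs2, a feedback inhibitor of growth hormone and JAK2 signalling, by 0.95, with 0.85 and -0.01 in its other probe sets. Of the 35 immediate early genes as a whole, 8 were higher and 1 lower, with a median of 0.06. The fall was that of Dusp1, from 11.25, 11.31, 11.09 and 11.33 to 10.92, 10.83, 10.73 and 11.01, and Fos, Jun, Junb and Myc had differences of -0.53, 0.16, -0.08 and 0.14 that did not pass the test.

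The other control groups show where the 24 h values lie. The mean of the mitosis list was 8.17 ± 0.11 at 0 h, 8.26 ± 0.03 at 1 h, 8.33 ± 0.02 at 8 h, 8.93 ± 0.05 at 24 h and 7.70 ± 0.10 at 72 h (SD, n = 4 arrays each). The highest array before 24 h stood at 8.35 and the lowest at 24 h at 8.89. The DNA replication mean was 8.72 ± 0.02 at 8 h, 8.62 ± 0.04 at 24 h and 7.87 ± 0.08 at 72 h. The list of growth factor and ERK feedback genes stood at 8.05 ± 0.08 at 0 h, 9.64 ± 0.07 at 1 h, 9.01 ± 0.08 at 8 h, 8.58 ± 0.04 at 24 h and 7.59 ± 0.06 at 72 h. Thus the 24 h level of this list lay between those at 0 h and 1 h. The 8 h arrays also carried macrophage transcripts, with a marker mean of 8.21 to 8.39 against 4.44 to 4.52 at 24 h. They differed in other lists too. The X inactivation and Y-linked genes had a mean of 7.56 at 8 h, against 6.46 at 0 h and 6.30 at 24 h. Skeletal muscle markers stood at 6.38 against 5.62 and 5.71, and collagens at 9.55 against 10.32 and 10.29. The part of such differences in the 8 h values was not tested, so these values cannot be read as change with time alone. All these groups are set side by side as a description.

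**Figure D4:**
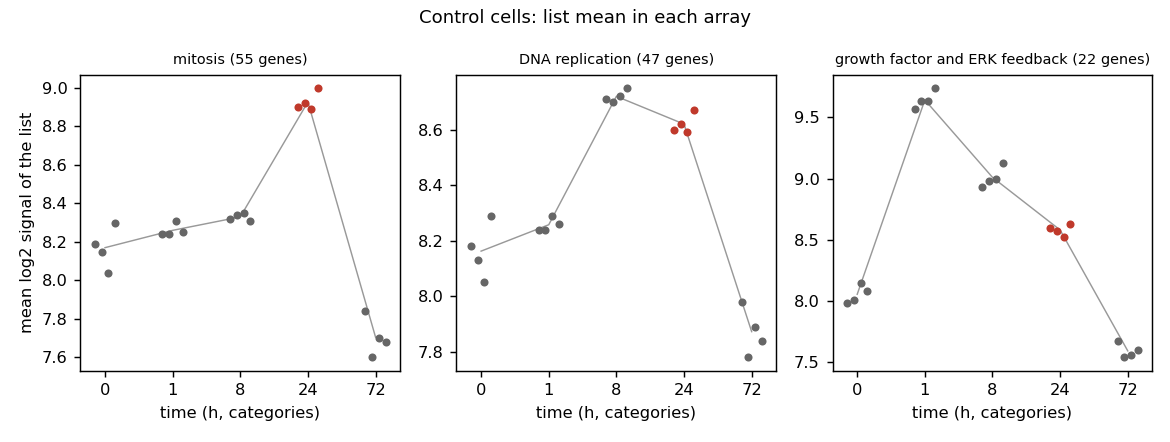
Mean log2 signal over the genes of 3 lists in each control array at 0, 1, 8, 24 and 72 h, with the 24 h arrays in red and a grey line through the group means. The mitosis mean is highest at 24 h (8.93), the DNA replication mean at 8 h (8.72) and the ERK feedback mean at 1 h (9.64). The 8 h arrays also differ in marker lists, so their values cannot be read as change with time alone.

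The largest rises outside the cell cycle were found in single genes of diverse function. Car8, a carbonic anhydrase-related protein without enzyme activity, was at 5.40, 5.57, 5.87 and 5.61 at 0 h and at 6.94, 7.13, 7.02 and 7.03 at 24 h, a 2.67-fold change (log2 1.42 ± 0.11, SE; adjusted p = 5.3e-10). Penk, the enkephalin precursor, rose from 5.87, 5.86, 5.66 and 5.90 to 7.11, 7.11, 6.82 and 6.99. It went on to a mean of 9.76 at 72 h, whereas Car8 stood at 4.76 there. Cxcr6, a chemokine receptor, rose by 1.14 and the neuronal splicing factor Rbfox1 by 1.18, with 0.56 and 0.93 in other probe sets of Rbfox1. Ahr, the aryl hydrocarbon receptor, rose from 8.18, 8.28, 8.54 and 8.49 to 9.25, 9.53, 9.40 and 9.57, with 0.06 in its other probe set. Gm2115 rose by 1.09 ± 0.08 (SE; adjusted p = 3.8e-10).

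Most matrix genes were not called, and the called ones lay in both directions. Of 32 genes of elastic fibres, proteoglycans and matrix glycoproteins 5 were higher and 4 lower, with a median of 0.02 (3 higher and 4 lower without control 0 h replicate 3). Of 21 collagens 1 was higher and 1 lower (0 and 1 without that array). Has2, which makes hyaluronan, was at 8.34, 8.13, 8.19 and 8.37 at 0 h and at 9.35, 9.28, 9.27 and 9.58 at 24 h, a rise of 1.12 ± 0.11 (SE; adjusted p = 3.9e-08). The hyaluronan-binding proteoglycan Vcan rose by 0.51 and the lysyl oxidase Loxl3 by 0.92. Timp1, an inhibitor of matrix proteases, moved from 12.79, 12.70, 12.51 and 12.95 to 13.46, 13.43, 13.43 and 13.44, by 0.70 ± 0.07 (SE; adjusted p = 2.2e-08), and the 4 arrays at 24 h were nearly equal.

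The 4 lower members were Eln, Fbln5, Mfap4 and Dcn. None of the other elastic fibre genes on the list was called lower. Loxl3 and, at 0.25 with all arrays only, Mfap5 were higher, and Fbn2, Fbln1, Fbln2, Mfap2, Ltbp1, Ltbp2, Ltbp3, Ltbp4, Lox, Loxl1 and Emilin1 were not called, with differences from -0.57 for Fbln1 to 0.22 for Ltbp3. Eln, elastin, had values of 8.84, 8.98, 8.51 and 9.01 at 0 h and of 7.84, 7.85, 7.59 and 7.61 at 24 h. It fell by 1.11 on the log2 scale (SE 0.16, adjusted p = 2.2e-05), a 2.16-fold lower signal, without overlap between the groups. The other probe set of Eln gave -0.60. Fbln5, which assembles elastin on microfibrils, went from 12.70, 12.71, 12.46 and 12.64 to 12.12, 12.02, 12.03 and 11.96, a difference of -0.60. Mfap4, another elastic fibre protein, had -0.69, and its groups overlapped because control 24 h replicate 2 and control 0 h replicate 2 both stood at 6.51. Dcn, decorin, the small proteoglycan on collagen fibrils, fell from 7.91, 7.95, 8.04 and 8.35 to 7.11, 7.22, 6.92 and 7.0 (log2 difference -1.0, SE 0.10, adjusted p = 1e-07). At 72 h the control means of Eln and Dcn were 9.53 and 9.50. The proteases Adamts1 and Adamts5 had differences of -0.50 and -0.48.

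The IGF system also held falls of abundant genes. Of its 13 members 3 were lower and 2 higher (3 and 1 without control 0 h replicate 3, where Igfbp4 was not called). Igfbp2 was at 11.95, 11.95, 11.68 and 12.08 at 0 h and at 11.64, 11.42, 11.16 and 11.34 at 24 h, with a difference of -0.52 (adjusted p = 0.00065) and no overlap. Irs2, the adaptor of the insulin receptor, had -0.75 and Igf2, the fetal growth factor, -0.38, where the groups of Igf2 overlapped. Igfbp3 and Igfbp4 rose by 0.45 and 0.29. Among WNT genes Sfrp2, a secreted inhibitor, fell by 0.74 on the log2 scale and Wnt2, Wnt5a and Apcdd1 rose by 0.49, 0.30 and 0.47, although one further probe set each gave -0.01 for Wnt5a and -0.09 for Apcdd1. Among TGF-beta and BMP genes Fst, which binds activin, rose by 0.64 ± 0.09 (SE; adjusted p = 1.1e-05), Acvr1, Bambi and Inhba by 0.45, 0.39 and 0.34, and Smad6 had -0.29. The other probe set of Fst gave 0.30. Of the 25 genes tested in this list 4 were higher and 1 lower (4 and 3 without control 0 h replicate 3, where Inhba was not called).

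Other large falls were Ptprz1 at -0.93, a receptor phosphatase that binds pleiotrophin, Klhl30 and Prl3a1 at -0.91 and Wnt16 at -0.90. Chodl, a C-type lectin domain protein, was called lower from 5.55, 5.27, 4.99 and 5.59 to 4.58, 4.30, 4.27 and 4.25, but 3 of its arrays at 24 h lay under the limit of 4.40 and the size of its fall cannot be read. Ptprz1 went from 7.54, 7.43, 7.33 and 7.84 to 6.67, 6.63, 6.54 and 6.57, and its mean at 72 h was 5.86. Both genes had no overlap between the groups. Zbed6 had -0.86 with the probe set used and 0.16 with its other probe set.

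A smaller set of falls leaned on control 0 h replicate 3. Apoe, apolipoprotein E, was at 6.23, 6.02, 8.63 and 6.67 at 0 h and at 5.76, 5.74, 5.68 and 5.59 at 24 h. Its difference was -1.19 (adjusted p = 0.00779) with all arrays and -0.61 (adjusted p = 0.00942) without replicate 3, and no array at 24 h reached the 0 h values. The macrophage lysozyme Lyz2 had 6.22, 5.97, 8.60 and 6.47 at 0 h, then 5.84, 5.76, 5.69 and 5.81 at 24 h, with -1.04 and, without replicate 3, -0.44. Gstm1, a glutathione S-transferase, and the coactivator Ppargc1b went from -0.96 and -0.85 to -0.41 and -0.38 in the same way. The part of the intestinal transcripts in these values was not tested.

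**Figure D5:**
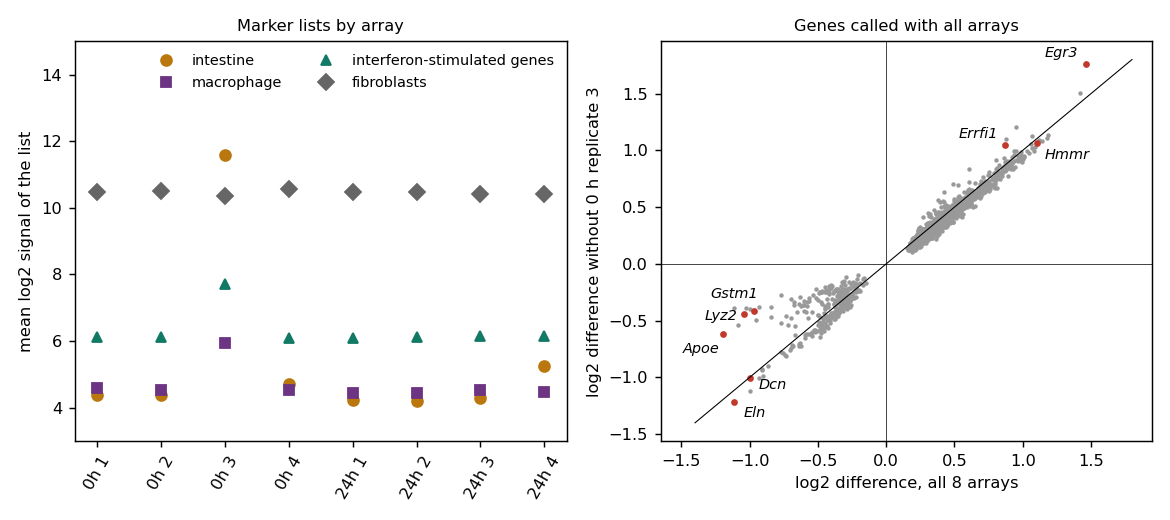
Left, mean log2 signal of 4 gene lists in each of the 8 arrays. Right, log2 difference of each gene called with all arrays (x axis) against that without control 0 h replicate 3 (y axis), with the line of equality. The intestinal mean is 11.58 in control 0 h replicate 3, and several falls such as Apoe move from -1.19 to -0.61 without it.

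That array also set the values of several lists. The 25 intestinal markers had a median difference of -1.93 with all arrays and -0.04 without it, and 0 were called by limma in either setting (1 and 0 at an unadjusted p under 0.05). Among them Apoa1, the apolipoprotein of HDL, was at 5.27, 5.44, 14.11 and 6.51 at 0 h and at 4.88, 4.88, 4.77 and 7.50 at 24 h. Interferon-stimulated genes stood at a list mean of 7.70 in replicate 3 and of 6.09 to 6.13 in the other 0 h arrays. Their median of -0.34 became -0.02 without it, and 1 of 36 was called higher and 1 lower, Irgm1 at 0.29 and the antiviral Rsad2 at -0.76, neither of which passed without the array. Of 17 macrophage markers 2 were lower, Lyz2 and Fcer1g, and Ctss and Ptprc, high in replicate 3 with 9.72 and 7.65, stood at 3.27 to 3.80 in the other 7 arrays.

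Of 29 genes of glycolysis and the hypoxia response 9 rose and 0 fell, with a median of 0.13 (10 and 0 without control 0 h replicate 3). This is 31.0% higher, against 9.12% of all genes tested. Bnip3, a mitophagy receptor induced by HIF-1, went from 9.58, 9.60, 9.58 and 9.65 to 10.12, 10.33, 10.31 and 10.16, by 0.63 ± 0.08 (SE; adjusted p = 2.7e-06). The glucose transporter Slc2a1 rose by 0.57 and the phosphofructokinase Pfkl by 0.48 (0.37 and 0.02 in its other probe sets), whereas Ldha, Pgk1 and Vegfa had differences of 0.05, 0.13 and 0.06 without a call. Of 29 cytokine and inflammation genes 5 were higher, Ccl2, Il6, Ccl7, Vcam1 and Icam1 at 0.75, 0.70, 0.52, 0.43 and 0.39, of which Ccl7 was not called without control 0 h replicate 3 (adjusted p = 0.0687). In this list 0 genes were lower with all arrays and 1 without that array. Ccl2, the monocyte chemoattractant, was at 8.44, 8.30, 8.04 and 8.68 at 0 h and at 9.14, 9.24, 9.01 and 9.06 at 24 h.

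Several stress and biosynthesis lists had shares of higher genes near the 9.12% of all genes tested or under it. Of 30 p53 targets 4 were higher, 13.3%, and 2 without control 0 h replicate 3. One that passed in both was Pmaip1, the BH3-only protein NOXA, at 0.53, and Cdkn1a was not called. Of 21 heat shock chaperones 3 were higher, 14.3%, and 1 without that array. Of 40 genes of ribosome biogenesis 3 were higher, 7.5%, and 0 without that array (limma; 5 at an unadjusted p under 0.05). Among 31 NRF2 target and glutathione genes 4 were higher and 1 lower (6 and 1 without that array). Of 38 ATF4 response genes 1 was higher and 1 lower (1 and 2 without it), the latter Ddit3, the stress factor CHOP, at -0.34.

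The 43 ribosomal protein genes held 0 calls with limma, with a median of -0.03, a range from -0.15 to 0.32 and 0 genes at an unadjusted p under 0.05. The 28 ER chaperones held 0 calls as well, with a median of -0.08 and 8 genes under that unadjusted p. Of these 28, 1 was called lower without control 0 h replicate 3. Of 75 nuclear genes of the respiratory chain 1 was lower and the median was -0.13. Without control 0 h replicate 3, 0 of them were called by limma, with 4 under an unadjusted p of 0.05. In the circadian clock list of 20 genes Bhlhe40, a repressor of CLOCK and BMAL1, was higher by 0.59, and Dbp, at 0.41, was called with all arrays only. Few calls were also made among 24 actin and contractile genes (1 lower) and 30 of lysosome and autophagy (1 higher and 3 lower).

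For the remaining lists the few calls moved with control 0 h replicate 3. Of 23 YAP and TEAD targets 3 were higher and 0 lower with all arrays, and 1 in each direction without it. Of 37 proteasome genes 2 were higher, and 1 without it. Of 20 genes of sterol synthesis and 12 of fatty acid synthesis 1 each was higher with all arrays, and 0 without it (limma; 4 and 1 at an unadjusted p under 0.05). Of 22 matrix proteases and inhibitors 2 were higher and 2 lower, and 1 and 4 without it.

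Markers of other cell types gave few calls. Of 9 neuron and glia markers 2 were higher, of 9 cartilage and bone markers 1 was higher, and of 9 endothelial markers 1 was lower, all 3 counts being equal without control 0 h replicate 3. Their medians were 0.05, -0.01 and -0.14. Tubb3 and Stmn2, which neurons express strongly, rose by 0.54 and 0.47, and Col2a1, the collagen of cartilage, by 0.68 from 8.54, 8.46, 8.10 and 8.40 to 9.29, 8.93, 8.88 and 9.13. The other members tested lay between -0.11 and 0.19 for neurons and glia and between -0.12 and 0.19 for cartilage and bone. Kdr, the VEGF receptor of endothelium, fell by 0.77 on the log2 scale, from 7.02, 7.04, 6.96 and 6.84 to 6.10, 6.04, 6.37 and 6.27, and the other endothelial markers lay between -0.28 and 0.03. Of 7 adipocyte markers 2 were lower, Lpl and Fabp4 at -0.70 and -0.46, and of 10 epithelial markers 1, the keratin Krt7 at -0.48. Of 18 fibroblast markers 2 were higher, Prrx1 and Twist2 at 0.28 and 0.19, and Dcn was lower, and neither rise passed without control 0 h replicate 3. Of 10 skeletal muscle markers, 6 erythroid markers and 3 X inactivation and Y-linked genes, 0 were called by limma and 0 had an unadjusted p under 0.05.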

How the data were processed

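RNA of primary MEFs was hybridised to Affymetrix mouse arrays, and the deposited table holds log2 signals that the authors normalized by RMA (version not given in the sources used here). No other step of the authors is stated for these values. The table has 45101 probe sets. Those annotated with a single symbol (34958) were used, and those with several (932) or without any (9211) were left out; the gene ID of 99.4% of those used was found in RefSeq (GRCm38.p6), from which current symbols were taken. Where a gene had several probe sets, the one brightest on average across the 35 arrays stood for it, giving 18194 genes. Testing was limited to the 14135 genes with a group mean of log2 4.40 or more, the 40th percentile of the table, in some group. Values ran from 2.44 to 14.62, and array medians from 4.98 to 5.09. The number of arrays limits the precision, with a median standard error of 0.103.

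Control 24 h was compared with control 0 h in 1 linear model of the 9 groups with limma 3.58.1 in R 4.3.3 (26 residual degrees of freedom). P-values are two-sided and Benjamini-Hochberg adjusted over all genes tested, with calls made under 0.05. The 4 values of each group are given in the order of the replicate numbers. Lists (28 of pathways, 11 of cell markers and 8 more drawn up after the values were seen) were described by counts and medians only. The members and lists were chosen with earlier results of these data known. Named are the 12 largest rises and falls among genes called with and without control 0 h replicate 3 whose groups do not overlap, up to 3 genes per direction of each list, and genes picked for their role after their values were seen. Same-numbered arrays of the groups deviated together at r = -0.167 to 0.081, and the main model leaves the numbers out. These 4 values cannot exclude a shared source of same-numbered arrays. By the limit of over 1 log2 unit, replicate 3 of control 1 h and MMS 1 h held 11 and 22 raised intestinal markers of 25. Replicate 3 of MMS 24 h and MMS 72 h held 23 and 19, and that of control 8 h, MMS 8 h, control 24 h and control 72 h held 0. Promoters are RefSeq sequences. On simulated arrays of this comparison with 200 of 14135 genes changed, 84% of those changed 1.5-fold and 99% of those changed 2-fold were found, and 3.68% of the calls were false. The simulated noise was independent between genes and arrays, and no simulated array stood apart as control 0 h replicate 3 does. These shares therefore need not hold for the real arrays. Alternatives changed the arrays, the model, the scaling, the filter and the choice of probe set.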

Additional observations from a re-analysis of the deposited data

Results flagged for a closer look

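Among the 4 arrays of a group, 1 array lay far from the rest (Dixon's test) in 26 of 268 groups of values, that is 134 named genes at 0 h and at 24 h. Chance flags about 1 group in 20. Control 0 h replicate 3 made 12 of these 26 and control 24 h replicate 4 made 6.

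Control 0 h replicate 3 was far above the other 0 h arrays in Apoa1 (14.11), Zg16 (13.48), Gstm1 (10.30), Ctss (9.72), Ptprc (7.65) and Rsad2 (6.97). In the same array Adamts5 (10.93), Top2a (9.72), Hmmr (8.50), Gtse1 (8.32), Irs2 (7.02) and Penk (5.66) were lower than in the other arrays by 0.13 to 0.33, and their calls did not need it. Control 24 h replicate 4 was far above the other 24 h arrays in Apoa1 (7.50), Fabp2 (7.02) and Zg16 (6.99), and by less in Kif23 (9.31), Egr2 (8.44) and Ptprc (3.73). Control 0 h replicate 4 was highest in Stmn2 (9.26), Bub1 (8.76) and Abcc4 (7.02), and control 0 h replicate 1 in Slc2a1 (10.53) and Klhl30 (6.05). The remaining values were those of Ddit3 in control 24 h replicate 3 (9.79), Mfap4 in control 24 h replicate 2 (6.51) and Chodl in control 24 h replicate 1 (4.58). Why these arrays differ was not tested.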

How the results depend on the processing

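The total of 1580 called genes (1289 higher, 291 lower) became 663 (591 and 72) with only the 8 arrays of these groups, 958 (747 higher) with these groups but no control 0 h replicate 3, 858 (695 and 163) without control 0 h replicate 3 and control 24 h replicate 4, a setting chosen after seeing the data, and 4843 (2971 and 1872) with array weights. A replicate block in the model of the 8 arrays gave 179 calls (166 and 13) and 11 DNA replication genes higher against 42, and a block over all arrays gave 1625 calls. Whether the numbers pair the arrays is not known. Leaving out each array in turn gave 1121 to 2127 calls, 932 to 1644 higher and 169 to 483 lower. The lower calls moved by over 1.5 times without control 0 h replicate 4 (483) and without control 24 h replicates 2 (190), 3 (183) and 4 (169). The 24 genes at least 2-fold different became 18 to 108 on leaving out 1 array, with 52, 48 and 108 without control 0 h replicates 1, 2 and 4, 12 when probe sets were averaged and 14 without both arrays named above. Why these counts moved was not tested. Mitosis genes called higher stayed at 50 to 53 and DNA replication genes at 37 to 42 on leaving out 1 array, with medians of 0.76 to 0.83 and 0.41 to 0.49, and averaging probe sets per gene gave a mitosis median of 0.69. Of the 129 named genes that were called, 57 were called under each of the 23 alternatives, and the one change of direction was that of Nipbl, at 0.01 when probe sets were averaged. Genes under the limit of log2 4.40 are close to the background of the arrays and cannot be read.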
